A study of Mus musculus with 11 samples.

Results

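The effect of rosiglitazone was examined in fat from mice whose adipocytes lack Raptor, by comparing 3 libraries from drug-fed mice with 2 libraries from mice on the diet alone. These 5 libraries, chosen by their genotype and treatment labels, are part of a series of 11. All came from inguinal white adipose tissue, the subcutaneous fat pad of the groin, of C57BL6/J mice aged 16 weeks. The Raptor-deleted mice carried floxed Raptor alleles and a Cre recombinase driven by the adiponectin promoter, which is active in adipocytes, so other cells of the tissue keep the gene. From 8 weeks of age they ate a high-fat diet for 8 weeks, alone or with rosiglitazone at 30 mg per kg per day. The other 6 libraries came from floxed littermates without Cre, 3 on each treatment. For all 6 of them the sample title and the treatment characteristic name opposite treatments. The characteristic was followed, and either reading leaves the comparison within Raptor-deleted tissue as it is. The labels do not tie the replicates to different mice, so p-values measure the spread between these libraries, which may be technical.

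Rosiglitazone binds PPARG, the nuclear receptor that with its partner RXR switches on the genes of adipocyte differentiation, fatty acid uptake and lipid storage. Raptor, encoded by Rptor, is the subunit that presents substrates to mTORC1, a kinase complex that senses nutrients and insulin and promotes protein, lipid and nucleotide synthesis and restrains lysosome formation. The study asked how the receptor and the kinase complex interact in this tissue. Within Raptor-deleted fat the question is which genes the drug moves when adipocyte mTORC1 is lost.

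4 of 26960 tested genes (0.0148%) were called at an adjusted p under 0.05 in edgeR's quasi-likelihood test. Hist1h2ap, a histone H2A gene, Btnl4, a butyrophilin-like membrane protein of the immunoglobulin superfamily, and C77080, a protein-coding gene known by a clone name, were higher with the drug (0.0111% of tested genes). Slc2a5, the fructose transporter GLUT5, was the 1 gene called lower (0.00371%). Around them, 46 of 67 replication-dependent histone genes and 22 of 36 cell cycle genes were higher with the drug at an unadjusted p under 0.05, against 4.09% of all tested genes. On the other side, 7 of 21 fatty acid synthesis genes, among them Fasn, Acaca and Acly, were lower at that threshold, against 4.27% of all tested genes, and none of the 3 was called.

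The histone call rests on a gene with near-identical copies. The first 120 coding bases of Hist1h2ap and of 3 of its relatives are given to show how little separates them. Capitals mark bases that differ from Hist1h2ap.
Hist1h2ap: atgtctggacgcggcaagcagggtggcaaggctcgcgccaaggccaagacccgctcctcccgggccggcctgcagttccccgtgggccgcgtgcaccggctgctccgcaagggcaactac
Hist1h2ao: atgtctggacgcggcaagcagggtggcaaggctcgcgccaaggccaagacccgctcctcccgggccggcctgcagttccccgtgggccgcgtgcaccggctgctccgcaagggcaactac
Hist1h2ag: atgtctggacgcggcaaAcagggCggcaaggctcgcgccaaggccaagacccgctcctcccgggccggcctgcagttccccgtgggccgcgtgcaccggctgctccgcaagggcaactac
Hist1h2ak: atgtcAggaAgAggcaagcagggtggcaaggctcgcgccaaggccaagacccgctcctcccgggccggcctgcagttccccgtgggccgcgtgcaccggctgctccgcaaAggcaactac
Over all 393 coding bases Hist1h2ao differed from Hist1h2ap at 0 positions, Hist1h2ag at 3 and Hist1h2ak at 12. A read from the coding part therefore cannot be assigned to Hist1h2ap or Hist1h2ao by its sequence, and the quantifier divides such reads by its model.

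Promoter sequence is given for 2 gene groups with many members past the unadjusted threshold on 1 side, histones and fatty acid synthesis, from RefSeq on GRCm38.p6. Each stretch ends at the base before the annotated gene and reads 5′ to 3′ on the gene's strand. Capitals mark the motif CCAAT or its reverse complement ATTGG. The Hist1h2ap promoter (listed there as H2ac24) lies at chr13:21833508-21833725 on the minus strand, and the Fasn promoter at chr11:120824548-120824797, also on the minus strand.
Hist1h2ap promoter: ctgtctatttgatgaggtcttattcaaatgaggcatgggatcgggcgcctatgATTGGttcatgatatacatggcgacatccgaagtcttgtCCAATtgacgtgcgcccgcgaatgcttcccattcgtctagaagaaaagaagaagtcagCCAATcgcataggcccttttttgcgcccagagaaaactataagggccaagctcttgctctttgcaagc
Fasn promoter: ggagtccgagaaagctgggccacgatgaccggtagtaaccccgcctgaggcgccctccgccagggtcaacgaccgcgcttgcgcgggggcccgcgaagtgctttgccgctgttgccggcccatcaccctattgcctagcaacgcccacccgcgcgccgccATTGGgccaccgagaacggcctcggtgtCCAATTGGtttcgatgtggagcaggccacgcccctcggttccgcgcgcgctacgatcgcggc
Each holds 3 matches on the 2 strands together, and in Fasn 2 of the 3 overlap. Windows of 250 bases could be matched for 58 of the 67 histone genes, and 47 of these (81.03%) held CCAAT on either strand. The share was 8 of 17 matched fatty acid synthesis genes (47.06%) and 33.85% of 32851 promoters in all. AGGTCA, the hexamer read by nuclear receptors, was in 1.724% of the histone windows, 11.76% of the fatty acid synthesis windows and 14.02% of all windows. Its direct repeat with any 1 base between the copies, the textbook form of a PPARG and RXR site, was in 0.03348% of all windows and in 0 of either group. These are matches of letters in short windows and describe no binding.

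Depth was 13035346 to 20163464 estimated reads in the 5 Raptor-deleted libraries and 16088059 to 40925952 in the floxed ones. The diet pair was uneven: of 18516 genes with an average log2 CPM (read counts scaled to a common library total) of at least 1, 22.87% differed at least 2-fold between its libraries, against 3.818% to 5.736% between pairs of drug libraries. Diet library 1 held more RNA of adipocyte and macrophage markers and diet library 2 more of lymphocytes. Summed markers of mature adipocytes stood at 7074 and 2577 CPM in diet libraries 1 and 2 and at 4256, 5262 and 4994 CPM in drug libraries 1, 2 and 3. Summed T and NK cell markers stood at 68.1 and 1084.7 CPM against 716, 663.5 and 752.5 CPM, and B cell markers at 1177 and 3431 CPM against 2513, 2307 and 2584 CPM. The drug libraries thus lie between the diet libraries for each of these 3 lists, and no member of the 3 lists was at 0 in any of the 5 libraries. Skeletal muscle markers reached 44053.5 CPM in drug library 2, against 184.4 to 391.2 CPM in the other 4, where up to 2 of the 20 were at 0. The share of reads from ribosomal RNA and signal recognition particle RNA was 28.44%, 15.61% and 16.57% in the drug libraries and 6.542% and 16.49% in the diet libraries. In bulk tissue, fewer cells of a type and less RNA per cell cannot be told apart.

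**Figure D1:**
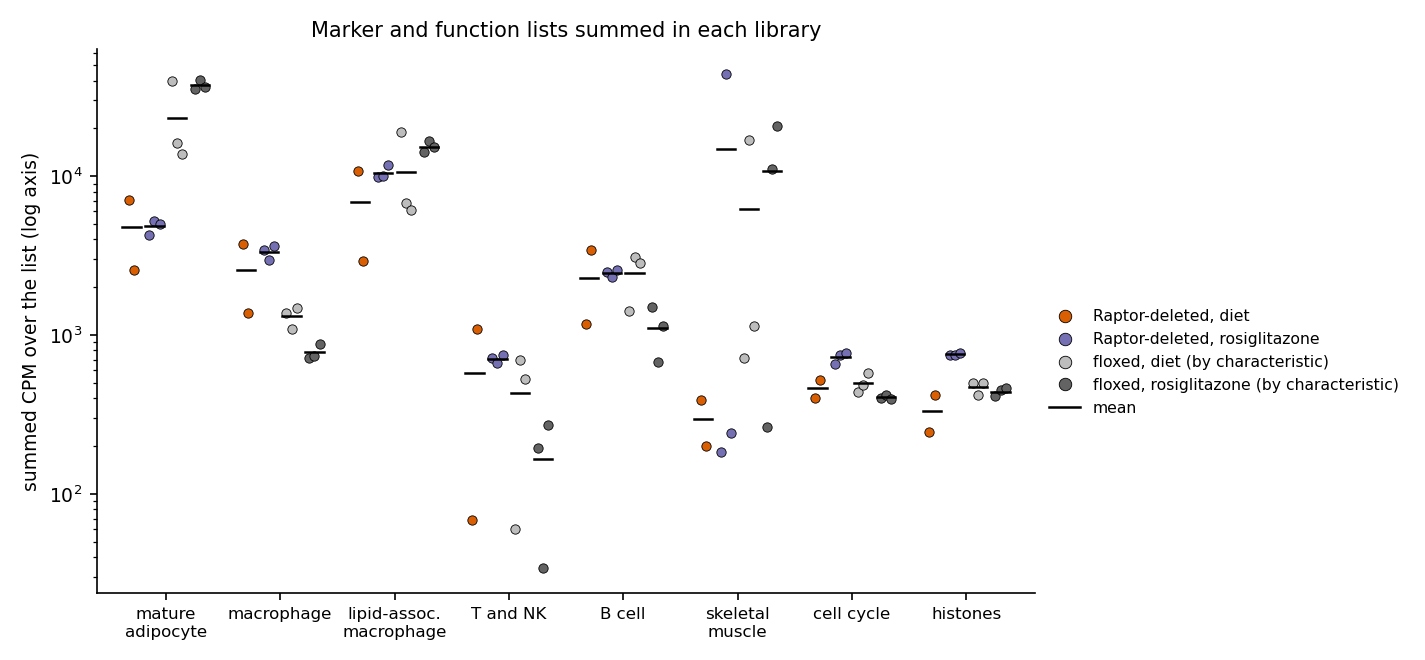
Summed CPM of cell type and function lists (log axis) in each library, with points for libraries and bars for group means. The diet libraries of Raptor-deleted tissue lie apart for T and NK cell markers (68.1 and 1084.7 CPM), 1 drug library stands at 44053.5 CPM for skeletal muscle, and for histones the 3 drug libraries sit above all others.

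Rptor itself was at 56.5 and 69.6 CPM in the diet libraries and at 88.3, 82.4 and 91.7 CPM in the drug libraries. Its log2 fold change of 0.47 ± 0.17 (SE) was not called (edgeR adjusted p = 0.471). Floxed libraries held 92.0, 80.1 and 73.9 CPM on the diet and 119, 126 and 110.5 CPM with the drug, so the drug-fed Raptor-deleted libraries overlap the floxed diet libraries. The values are sums over all transcripts of the gene and all cells of the tissue, and the labels do not say which exons are removed, so they are a weak check of the deletion.

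Slc2a5 carries fructose across the plasma membrane. It stood at 13.7 and 5.15 CPM in the diet libraries and at 0.0623, 0.0753 and 0 CPM in the drug libraries. The 6 floxed libraries held between 0 and 0.127 CPM, so both diet libraries of Raptor-deleted fat stood above all 9 others. Slc2a5 fell by 7.55 ± 0.82 (SE) on the log2 scale with the drug (edgeR adjusted p = 0.0298). In reads, 408 against 2 gave a 204.2-fold ratio with an exact (Clopper-Pearson) 95% interval of 56.17 to 1692, which covers counting error only. The gene lies at chr4:150119283-150144169 on the plus strand. Its log2 fold change was between -8.09 and -6.68 without any 1 of the 5 Raptor-deleted libraries, but it was called in 1 of these 5 fits, and in 12 of 23 alternatives in all. The list of hexose transport and fructose use had 13 tested genes (of 14 listed) and a median of 0.14. Its 1 call, against 0.0148% of all tested genes, was Slc2a5 itself. The nearest others by p were Slc2a1, the basal glucose transporter GLUT1, at a log2 fold change of 0.72 ± 0.28 (adjusted p = 0.522), and Khk, ketohexokinase, the enzyme that traps fructose in the cell, at 0.45 ± 0.23 (adjusted p = 0.677).

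Btnl4 lies at chr17:34466562-34477318 on the minus strand, in the major histocompatibility region. It was at 0 and 0.160 CPM in the diet libraries and at 8.91, 8.13 and 8.96 CPM in the drug libraries. The groups are well apart, and the drug libraries hardly differ among themselves. Btnl4 rose by 6.55 ± 0.66 (SE) on the log2 scale (edgeR adjusted p = 0.0219). The floxed libraries showed the same pattern, with 0.651, 0.246 and 0.417 CPM on the diet and 21.7, 17.5 and 13.6 CPM with the drug (log2 fold change 5.30 ± 0.47, adjusted p = 0.00453). Without drug library 1, 2 or 3 the adjusted p in Raptor-deleted fat was 0.1064, 0.05905 and 0.1156, and the call was made in 16 of 24 alternatives. Of 8 tested butyrophilin-like genes (10 listed) 3 were higher at an unadjusted p under 0.05, against 4.09% of all tested genes. DESeq2 called 3 higher, against 0.868% of all. Btnl5-ps, a pseudogene of the family, had 0 and 0.0799 CPM against 4.43, 5.72 and 4.11 CPM (log2 fold change 6.58 ± 0.89, adjusted p = 0.0699), and a ratio of 106.4 in reads with an interval of 29.09 to 884.2. Btnl6 had 0 and 0.0799 CPM against 0.748, 0.904 and 1.31 CPM, with a ratio of 22.48 and an interval of 5.872 to 191.3. Btnl5-ps shares 16.49% of the 31-base words of Btnl4, so part of the reads of this cluster could be divided among its members by the quantifier. Btnl10 was at 2.86 and 4.19 CPM against 1.87, 2.71 and 1.68 CPM (log2 fold change -0.76 ± 0.28, adjusted p = 0.492).

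C77080 stood at 21.6 and 14.3 CPM on the diet and at 66.9, 71.8 and 68.5 CPM with the drug. The floxed libraries lay between 9.11 and 14.3 CPM, below all 3 drug libraries of Raptor-deleted fat. C77080 rose by 1.95 ± 0.23 (SE) on the log2 scale, with an edgeR adjusted p of 0.0491 that lies just inside the threshold. It was called in 10 of 24 alternatives, and its log2 fold change was 1.68 to 2.27 without any 1 Raptor-deleted library. The gene is at chr4:129219578-129261404 on the minus strand.

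**Figure D2:**
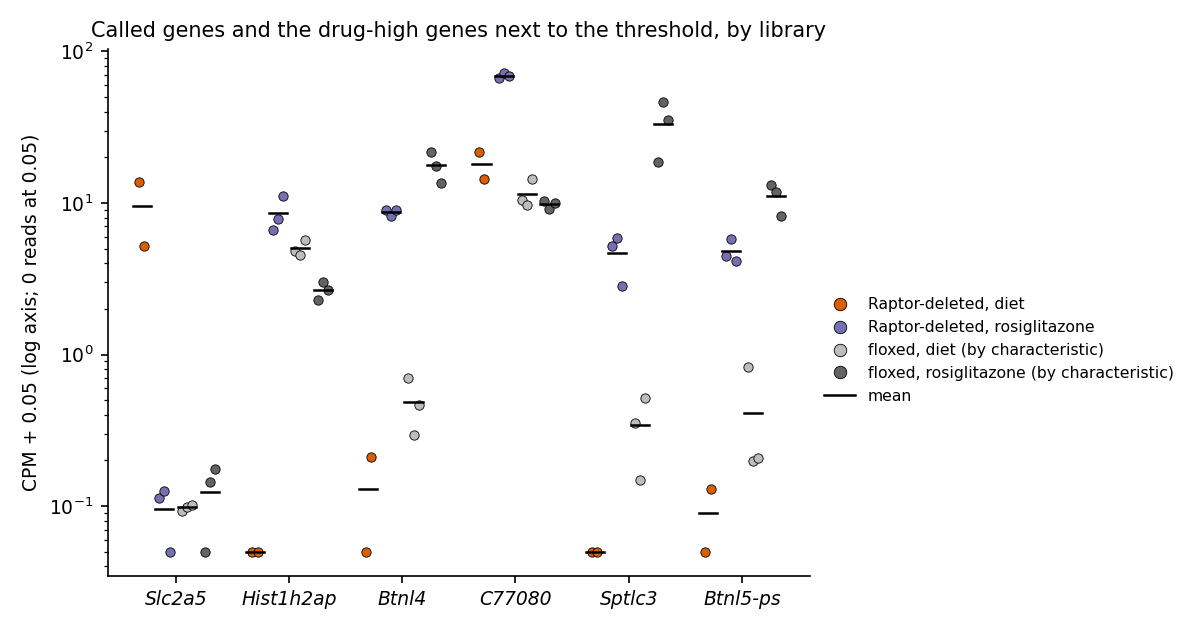
CPM + 0.05 (log axis, so that 0 reads are drawn at 0.05) of the 4 called genes and of Sptlc3 and Btnl5-ps in each library, with points for libraries and bars for means. Slc2a5 is high only in the 2 diet libraries of Raptor-deleted fat, Btnl4, Sptlc3 and Btnl5-ps are high in the drug groups of both genotypes, and Hist1h2ap is at 0 in the 2 diet libraries alone.

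Sptlc3, a subunit of serine palmitoyltransferase, the first enzyme of sphingolipid synthesis, lay just outside the threshold. It had 0 reads in both diet libraries and 5.17, 5.80 and 2.80 CPM in the drug libraries. With 3 counts taken as the floor over the diet group, Sptlc3 was at least 68.27-fold higher in the drug group (edgeR adjusted p = 0.0595). In floxed fat Sptlc3 went from 0.304, 0.0982 and 0.469 CPM to 18.5, 46.1 and 35.3 CPM, a log2 fold change of 6.82 (adjusted p = 0.00453). Cacng5, a calcium channel gamma subunit, showed 0.492 and 0 CPM against 2.06, 2.56 and 2.43 CPM (log2 fold change 3.31 ± 0.96, adjusted p = 0.359) and reached 20.5 to 28.3 CPM with the drug in floxed fat. Mfap4, an extracellular matrix protein of elastic fibres, was at 0.591 and 0.240 CPM against 5.42, 2.56 and 3.48 CPM (log2 fold change 3.21 ± 0.55, adjusted p = 0.123). All 3 are among the 10 highest fold changes of genes not called, a set picked for no overlap between the groups. Their lack of overlap and of a call therefore follows from that rule.

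Hist1h2ap, at chr13:21833026-21833507 on the minus strand, had 0 reads in both diet libraries and 6.61, 7.83 and 11.015 CPM in the drug libraries. In reads this is 387 against 0, at least 128.9-fold higher with 3 counts taken as the floor over the diet group (edgeR adjusted p = 0.000612). It was called in 22 of 24 alternatives, including all 5 that leave out a Raptor-deleted library. The floxed libraries held 2.24 to 5.68 CPM, so the diet libraries of Raptor-deleted fat were the 2 without a read. The identical copy Hist1h2ao, however, had 39 and 79 reads in those diet libraries and 32, 56 and 0 reads in the drug libraries. When the 12 H2A genes that hold at least 50% of the 31-base words of Hist1h2ap were summed as 1, the diet libraries held 10.19 and 22.72 CPM and the drug libraries 44.76, 52.71 and 64.41 CPM. The groups still did not overlap, but the log2 fold change came to 1.71 ± 0.32 and was not called (edgeR adjusted p = 0.163). The 0 of Hist1h2ap alone is thus not matched in the sum of its near-identical copies. This sum was made after the values were seen, and with it 2 genes were called, Slc2a5 (adjusted p = 0.04453) and Btnl4 (adjusted p = 0.0437).

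**Figure D3:**
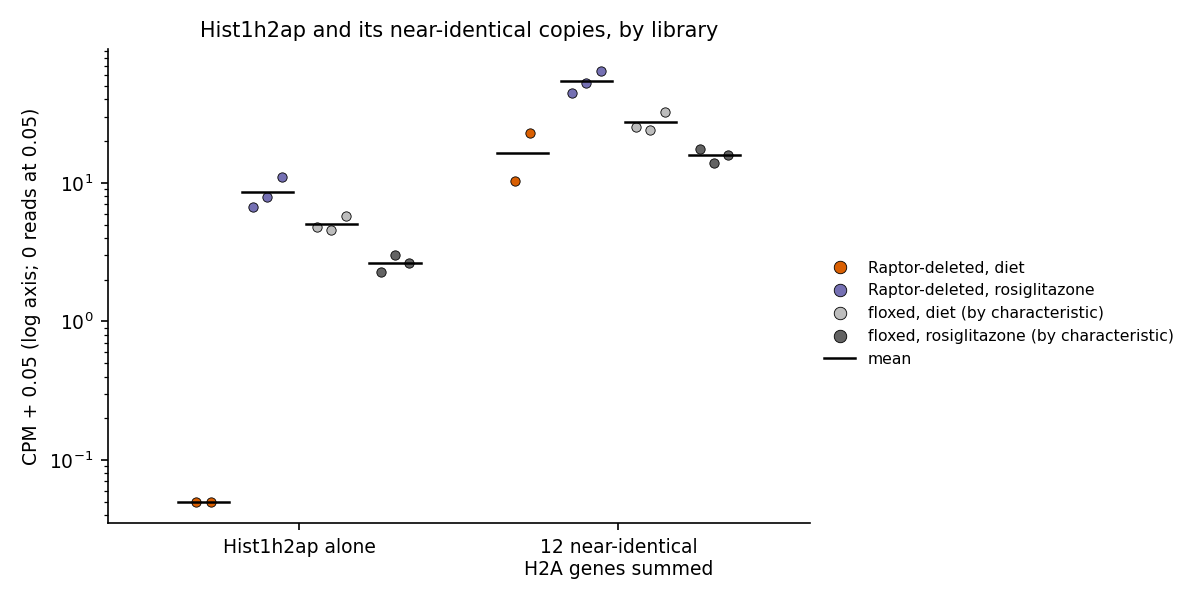
CPM + 0.05 (log axis) of Hist1h2ap alone and of 12 near-identical H2A genes summed, by library, with bars for means. Hist1h2ap is at 0 in both diet libraries of Raptor-deleted fat, whereas the sum is at 10.19 and 22.72 CPM there and at 44.76 to 64.41 CPM with the drug.

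Replication-dependent histone genes are transcribed in S phase to package new DNA. All 67 listed genes were tested, and 62 had a positive log2 fold change, against 49% of all tested genes. Their median was 1.35, against -0.01 over all tested genes, and 49 lay higher in every drug library than in both diet libraries, against 10.5% of all. DESeq2 called 20 higher, against 0.868% of all tested genes. edgeR called 1, against 0.0111% of all, and it was Hist1h2ap, whose copies summed were not called. Hist1h3h, an H3 gene, was at 3.99 and 9.23 CPM against 25.4, 34.4 and 35.5 CPM (log2 fold change 2.26 ± 0.37, adjusted p = 0.105). Hist1h4i, an H4 gene, was at 1.48 and 2.44 CPM against 6.67, 7.15 and 5.04 CPM. Hist1h2af, an H2A gene, was at 2.12 and 3.83 CPM against 8.04, 11.5 and 8.15 CPM. Hist1h2ah was at 0.394 and 1.52 CPM against 5.36, 2.86 and 11.8 CPM, the most uneven of the 4 among drug libraries. Summed over the list, histone reads were 244.3 and 422.6 CPM on the diet and 752.1, 747.6 and 768.8 CPM with the drug, while the floxed libraries lay between 412.0 and 497.8 CPM. Most of these genes belong to families of close copies, so single members are uncertain. Canonical histone messages also lack a poly(A) tail, and the ribosomal and signal recognition particle RNA share given above was 6.542% in the diet library with the lowest histone sum. Its part in the result was not tested. The median was 0.90 without diet library 1 (24 genes higher at the unadjusted threshold) and 2.12 without diet library 2 (51 higher, 10 called).

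Cell cycle genes lay on the same side. All 36 had a positive log2 fold change, with a median of 0.83. DESeq2 called 11 higher, against 0.868% of all tested genes, and edgeR 0. The groups did not overlap for 27, against 10.5% of all. Cenpe, the kinetochore motor of mitosis, was at 3.50 and 4.87 CPM on the diet and at 10.4, 10.8 and 12.1 CPM with the drug (log2 fold change 1.41 ± 0.27, edgeR adjusted p = 0.166). Ccnb2, a mitotic cyclin, was at 2.27 and 2.84 CPM against 4.80, 7.08 and 6.47 CPM. Kif11, the spindle kinesin Eg5, was at 6.75 and 9.90 CPM against 16.5, 18.3 and 16.3 CPM. Rrm2, which makes deoxynucleotides for DNA synthesis, was at 3.05 and 4.15 CPM against 7.61, 9.64 and 12.6 CPM. The list summed to 404.7 and 518.0 CPM against 656.7, 744.4 and 769.8 CPM, and to 394.1 to 580.9 CPM in floxed fat. The median was 0.77 without diet library 1 and 1.185 without diet library 2, and 0.69 to 0.95 without each drug library. In floxed fat the list's median was -0.35 and that of the histones -0.49 by the treatment characteristic. With summed B cell markers as a covariate, 26 of the 36 cell cycle genes were higher at the unadjusted threshold, with a median of 0.84. Of the 67 histone genes 50 were higher in that fit, with a median of 1.35, against 2461 of all 26960 tested genes. No covariate for T and NK cell markers was fitted, and their part in these results was not tested.

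**Figure D4:**
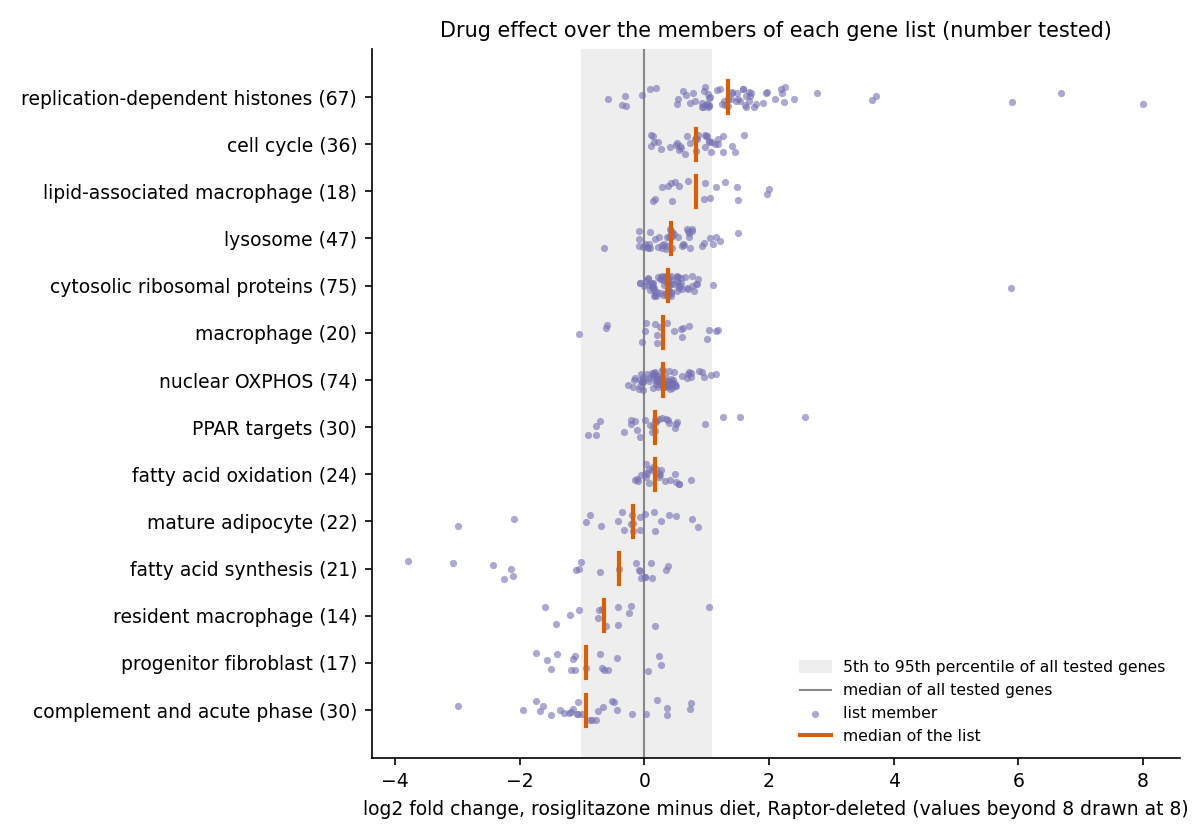
Log2 fold change of rosiglitazone against diet in Raptor-deleted fat (horizontal axis) for the tested members of 14 lists, with points for genes, orange bars for list medians, and the grey band for the 5th to 95th percentile of all tested genes. Histone (median 1.35) and cell cycle members (0.83) lie to the right, and complement (-0.94) and progenitor fibroblast members (-0.93) to the left.

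De novo lipogenesis turns glucose carbon into fatty acids through citrate, acetyl-CoA and malonyl-CoA, and several of its enzymes were lower with the drug at the unadjusted threshold. Acly, which cleaves citrate to acetyl-CoA, was at 855 and 369 CPM on the diet and at 103, 123 and 114 CPM with the drug (log2 fold change -2.43 ± 0.37, edgeR adjusted p = 0.0786). Acaca, which makes malonyl-CoA, was at 2004 and 619.9 CPM against 152, 204 and 114 CPM (-3.06 ± 0.48, adjusted p = 0.0786). Fasn, the fatty acid synthase, was at 8435 and 3324 CPM against 425, 593 and 263 CPM (-3.78 ± 0.63, adjusted p = 0.109). Elovl6, which lengthens palmitate, was at 85.6 and 23.4 CPM against 8.29, 17.1 and 9.09 CPM (-2.25 ± 0.46, adjusted p = 0.179). The groups did not overlap for any of the 4, against 10.7% of all tested genes lower without overlap. Fasn and Acaca were among genes picked for no overlap, and Acly and Elovl6 were named for a small p, so this adds no support. Diet library 1 was more than 2-fold above diet library 2 in each of the 4. The floxed libraries held 666 to 2771 CPM of Fasn, so the diet libraries of Raptor-deleted fat lay above them and the drug libraries below. Fasn was called in 6 of 24 alternatives, Acaca in 6 and Acly in 8, and their log2 fold changes without any 1 Raptor-deleted library were -4.31 to -2.96, -3.68 to -1.98 and -2.92 to -1.70.

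Over the 21 tested genes of fatty acid synthesis (22 listed) the median was -0.41, with 8 lower and 2 higher without overlap, against 10.7% of all tested genes lower without overlap. DESeq2 called 5 lower, against 0.445% of all. Summed reads of the list were 14761 and 5630 CPM on the diet and 1626, 2087 and 1337 CPM with the drug. The median of the list was -0.11 without diet library 1 and -1.12 without diet library 2. Among regulators, Thrsp, the thyroid hormone responsive spot 14 protein of lipogenic tissues, was at 334 and 169 CPM against 30.0, 43.1 and 21.9 CPM (-2.99 ± 0.43, adjusted p = 0.0786). Mlxipl, which encodes the carbohydrate response factor ChREBP, was at 171 and 68.0 CPM against 25.1, 41.2 and 27.2 CPM (-1.94 ± 0.39, adjusted p = 0.169). Srebf1, which encodes the insulin-responsive factor SREBP1, was at 317 and 185 CPM against 241, 300.4 and 224 CPM (0.03 ± 0.32, adjusted p = 0.996), so its groups overlapped. Nr1h2, the oxysterol receptor LXR beta, was at 34.3 and 32.9 CPM against 41.8, 50.1 and 45.9 CPM (0.45 ± 0.17, adjusted p = 0.492). Tkt, transketolase of the pentose phosphate pathway, was at 392 and 204 CPM against 91.6, 121 and 102 CPM (-1.51 ± 0.36, adjusted p = 0.261).

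**Figure D5:**
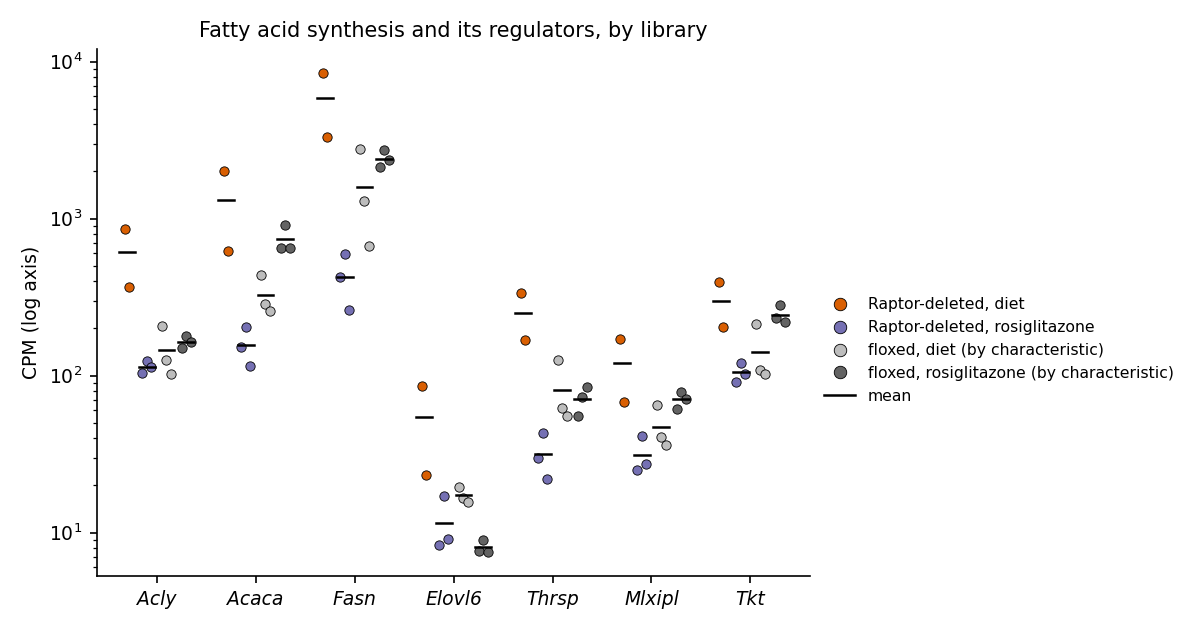
CPM (log axis) of fatty acid synthesis genes and their regulators by library, with points for libraries and bars for means. For each of the 7 genes both diet libraries of Raptor-deleted fat lie above its 3 drug libraries (Fasn 8435 and 3324 CPM against 263 to 593 CPM).

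Of 22 markers of the mature adipocyte, 3 were lower at the unadjusted threshold, against 4.27% of all tested genes, and 0 were higher. The median was -0.18, which was 0.79 without diet library 1 and -0.71 without diet library 2. Cfd, the adipokine adipsin that activates the alternative complement pathway, was at 29.9 and 73.5 CPM against 9.10, 5.57 and 4.92 CPM (-2.98 ± 0.45, edgeR adjusted p = 0.0786), and at 405 to 1324 CPM in floxed fat. Retn, the adipokine resistin, was at 97.6 and 35.1 CPM against 15.6, 13.7 and 17.5 CPM (-2.09 ± 0.48, adjusted p = 0.252). For the other classical genes the drug libraries lay inside or near the range of the uneven diet pair. Pparg, the drug's receptor, was at 152 and 41.7 CPM against 45.3, 62.1 and 45.1 CPM (-0.93 ± 0.49, adjusted p = 0.678). Adipoq, which encodes adiponectin and drives the Cre, was at 205 and 57.7 CPM against 134, 184 and 200.4 CPM (0.40 ± 0.62, adjusted p = 0.944), and at 453 to 1864 CPM in floxed fat. Plin1, which coats the lipid droplet, was at 518 and 186 CPM against 311, 386 and 366 CPM, and Lep, the satiety hormone leptin, at 283 and 35.9 CPM against 112, 121 and 189 CPM. Slc2a4, the insulin-regulated glucose transporter GLUT4, was at 131 and 38.7 CPM against 34.1, 119.7 and 45.8 CPM. Ucp1, the uncoupling protein of brown and beige fat, was at 125 and 14.7 CPM against 30.5, 139 and 24.3 CPM. Among drug libraries both peaked in drug library 2, the one with muscle RNA. Their log2 fold changes were -0.35 and -0.12, and -1.07 and -1.34 without that library. With muscle markers as a covariate they were -0.72 and -1.24. The sign of Pparg, Adipoq, Plin1, Lep, Slc2a4 and Ucp1 turned without 1 library, so no direction is given for them.

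Of 27 tested adipokines (29 listed), 3 were higher and 5 lower at the unadjusted threshold, against 4.09% and 4.27% of all tested genes, with a median of -0.20. That median was 0.54 without diet library 1 and -0.96 without diet library 2. Beside Cfd and Retn, Nrg4, a growth factor secreted by fat, was at 78.9 and 26.9 CPM against 14.0, 19.9 and 17.4 CPM (-1.63 ± 0.38, adjusted p = 0.256). C1qtnf9, a complement-like relative of adiponectin, was at 13.3 and 8.91 CPM against 3.68, 3.01 and 3.92 CPM (-1.65 ± 0.40, adjusted p = 0.265).

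Of 30 known targets of PPAR receptors, 2 were higher and 0 lower at the unadjusted threshold in Raptor-deleted fat, against 4.09% and 4.27% of all tested genes. The median was 0.16, and it was 1.40 in floxed fat by the treatment characteristic. The difference between genotypes was tested gene by gene, and 0 of the 30 were called in it, against 0.104% of all tested genes. With so small a share, 0 does not show that the genotypes respond alike. The list's median difference was -1.30 by the treatment characteristic. Acaa1b, a peroxisomal thiolase, was at 12.8 and 3.55 CPM against 43.7, 69.2 and 33.3 CPM (2.58 ± 0.88, edgeR adjusted p = 0.465). Cyp4b1, a fatty acid hydroxylase, was at 108 and 39.0 CPM against 144, 159 and 227 CPM (1.26 ± 0.43, adjusted p = 0.449). Fabp5, a fatty acid binding protein, was at 57.1 and 17.5 CPM against 46.8, 85.8 and 86.4 CPM (0.97 ± 0.52, adjusted p = 0.681). Fabp4, its abundant adipocyte relative, was at 1064 and 428 CPM against 1058, 929 and 852 CPM (0.34 ± 0.48, adjusted p = 0.936). Cd36, the fatty acid translocase, was at 2490 and 514 CPM against 1261, 1838 and 1948 CPM (0.16 ± 0.66). The signs of Fabp4 and Cd36 turned without diet library 2. The median was 1.23 without diet library 1 and -0.40 without diet library 2, so the direction of the list depends on which diet library is used.

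The medians of the mitochondrial lists were also small and moved with the diet library used. Of 74 tested nuclear genes of oxidative phosphorylation (75 listed), 9 were higher and 0 lower at the unadjusted threshold, against 4.09% and 4.27% of all tested genes. Their median was 0.29, against 1.46 in floxed fat by the treatment characteristic. The sample titles would turn the sign of the floxed medians in this paragraph. Atp5e, a subunit of ATP synthase, was at 9.31 and 7.43 CPM against 20.1, 15.9 and 12.8 CPM (0.96 ± 0.21, edgeR adjusted p = 0.224), and Ndufb7, a subunit of complex I, at 10.3 and 10.7 CPM against 22.1, 15.0 and 14.9 CPM (0.72 ± 0.20, adjusted p = 0.34). The 24 genes of fatty acid oxidation had a median of 0.17, with 0 past the threshold in either direction. In floxed fat their median was 1.88 by the treatment characteristic. Without diet library 1 the median was 1.11, and without diet library 2 it was -0.28. Etfb, which passes electrons from acyl-CoA dehydrogenases to the respiratory chain, was at 63.1 and 26.0 CPM against 75.7, 84.6 and 63.8 CPM. Acadvl, the dehydrogenase for very long chains, was at 149 and 60.5 CPM against 147, 188 and 127 CPM, with overlapping groups. The 31 genes of the citric acid cycle and pyruvate dehydrogenase had a median of 0.01, which was 0.57 without diet library 1 and -0.41 without diet library 2. Pdha1, the dehydrogenase subunit that regulatory kinases phosphorylate, was at 575 and 191 CPM against 123, 187 and 115 CPM (-1.44 ± 0.47). The oxidative phosphorylation median was 0.74 without diet library 1 and -0.08 without diet library 2.

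Of the 3 macrophage lists, that of lipid-associated macrophages, the cells that surround and digest dying adipocytes, had the highest median. All 18 genes had a positive log2 fold change with a median of 0.83, 6 were higher at the unadjusted threshold (4.09% of all tested genes), and 9 did not overlap (10.5% of all). DESeq2 called 2 higher (0.868% of all) and edgeR 0. Trem2, the lipid-sensing receptor that defines the state, was at 42.6 and 19.1 CPM on the diet and at 142, 98.3 and 119.8 CPM with the drug (1.96 ± 0.40, edgeR adjusted p = 0.177). Itgax, which encodes the integrin CD11c, was at 34.4 and 21.3 CPM against 65.3, 59.0 and 80.5 CPM (1.29 ± 0.32, adjusted p = 0.268). Gpnmb, a lysosomal glycoprotein of foamy macrophages, was at 445 and 94.7 CPM against 977, 1025 and 1242 CPM (2.00 ± 0.71, adjusted p = 0.471), and Lgals3, galectin 3, at 227 and 75.0 CPM against 434, 366 and 474 CPM. The list's median was 1.92 without diet library 1, the library with more macrophage RNA, and 0.29 without diet library 2.

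General macrophage markers had a median of 0.30 over 20 genes. At the unadjusted threshold 5 were higher and 0 lower, against 4.09% and 4.27% of all tested genes. Tyrobp, the signalling adaptor of TREM2, was at 33.6 and 12.1 CPM against 53.9, 42.9 and 54.3 CPM (1.14 ± 0.38), and Cd68, a lysosomal macrophage marker, at 53.0 and 16.0 CPM against 55.7, 73.9 and 105 CPM (1.18 ± 0.48, adjusted p = 0.549). Their median was 1.33 without diet library 1 and -0.11 without diet library 2. Markers of resident macrophages had a median of -0.65 over 14 genes, with 3 lower and 0 higher, against 4.27% and 4.09% of all tested genes. That direction rests on diet library 1: without it the median was 0.34, and without diet library 2 it was -1.10. Cd209f, a lectin, was at 116 and 35.9 CPM against 24.4, 19.7 and 30.8 CPM (-1.60 ± 0.50), and F13a1, coagulation factor XIII, at 471 and 138 CPM against 99.9, 105 and 138 CPM (-1.41 ± 0.46). None of these genes was called. Itgad, the integrin CD11d, was at 1.67 and 1.52 CPM against 16.1, 17.0 and 22.2 CPM (3.53 ± 1.10, adjusted p = 0.415).

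Lysosomal genes, whose expression mTORC1 restrains through TFEB, had a median of 0.43 over 47 genes. At the unadjusted threshold 9 were higher and 0 lower, against 4.09% and 4.27% of all tested genes. Without overlap 21 were higher, against 10.5% of all. Gusb, the lysosomal glucuronidase, was at 95.2 and 47.3 CPM against 167, 152 and 174 CPM (1.21 ± 0.31), and Psap, the precursor of the saposins, at 1704 and 982 CPM against 3687, 2315 and 2685 CPM (1.11 ± 0.38). Man2b1, a lysosomal mannosidase, was at 148 and 139 CPM against 226, 211 and 217 CPM. Tfeb itself was at 19.0 and 33.7 CPM against 41.4, 49.1 and 41.01 CPM. The median of the lysosomal list was 0.98 without diet library 1 and 0.10 without diet library 2. Of 41 genes of the mTOR complexes and their regulators 13 were higher and 0 lower without overlap, against 10.5% and 10.7% of all tested genes. Their median was 0.17, and at the unadjusted threshold 3 were higher and 0 lower, against 4.09% and 4.27% of all. The median was 0.31 without diet library 1 and 0.12 without diet library 2. Cytosolic ribosomal protein genes had positive values in 72 of 75 (49% of all tested genes), with a median of 0.37. At the unadjusted threshold 14 were higher, against 4.09% of all tested genes. Rpl36 was at 24.7 and 23.8 CPM against 46.3, 40.96 and 39.4 CPM (0.80 ± 0.15, edgeR adjusted p = 0.166), and Rps29 at 17.4 and 19.3 CPM against 40.5, 27.7 and 30.4 CPM (0.84 ± 0.24, adjusted p = 0.348). Drug library 1, with the highest ribosomal and signal recognition particle RNA share (28.44%), was the highest in both, and without it the list's median was 0.23. Its part in the result was not tested.

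Markers of stromal progenitors and complement genes lay on the lower side. Of 17 tested markers of progenitor fibroblasts (18 listed), 7 were lower and 0 higher at the unadjusted threshold, against 4.27% and 4.09% of all tested genes. Their median was -0.93. Ly6a, which encodes the stem cell antigen Sca-1, was at 444 and 126 CPM against 119, 72.2 and 98.0 CPM (-1.56 ± 0.44). Cd34, a progenitor surface protein, was at 264 and 104 CPM against 73.4, 68.5 and 65.7 CPM (-1.41 ± 0.42), and Dpp4, which marks interstitial progenitors, at 134 and 95.1 CPM against 45.0, 51.2 and 55.4 CPM (-1.18 ± 0.36). Of 30 tested complement and acute phase genes (32 listed), 9 were lower and 0 higher, against the same shares, with a median of -0.94. DESeq2 called 3 lower, against 0.445% of all tested genes. Beside Cfd, Cp, the copper carrier ceruloplasmin, was at 122 and 58.5 CPM against 45.4, 36.2 and 38.0 CPM (-1.18 ± 0.28), and C6, a part of the membrane attack complex, at 21.8 and 10.4 CPM against 6.36, 3.24 and 2.92 CPM (-1.94 ± 0.50). Without diet library 1 the median was -0.23 for the progenitor list and -0.03 for the complement list. Without diet library 2 these medians were -1.35 and -1.51.

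Of matrix genes, 3 of 35 tested (36 listed) were higher and 5 lower at the unadjusted threshold, against 4.09% and 4.27% of all tested genes. Their median was 0.06, which was 1.08 without diet library 1 and -0.52 without diet library 2. Mmp9, gelatinase B, was at 25.6 and 6.67 CPM against 1.62, 2.03 and 2.80 CPM (-2.90 ± 0.57, edgeR adjusted p = 0.167), Timp4, a metalloproteinase inhibitor, at 81.3 and 27.4 CPM against 8.48, 9.64 and 13.3 CPM (-2.37 ± 0.49), and Tgfb1, the profibrotic growth factor, at 50.4 and 66.9 CPM against 96.6, 105 and 106 CPM (0.81 ± 0.22). Of 30 tested chemokine and cytokine genes (31 listed), 1 was higher and 6 lower, against 4.09% and 4.27% of all tested genes. Their median was -0.35, which was 0.21 without diet library 1 and -1.105 without diet library 2. Ccl8, a monocyte chemokine, was at 124 and 14.8 CPM against 10.6, 8.81 and 6.29 CPM (-3.02 ± 0.74, adjusted p = 0.27), and Ccr2, the receptor of inflammatory monocytes, at 237 and 41.6 CPM against 31.3, 30.3 and 40.9 CPM (-2.03 ± 0.56, adjusted p = 0.34). Their log2 fold changes without diet library 1 were -0.79 and -0.28.

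The other genes with the most extreme fold changes mostly followed 1 library. Among the lowest, Mup22, a major urinary protein of a near-identical family, was at 215 and 19.7 CPM on the diet against 1.13 to 3.12 CPM, Chil3, a chitinase-like protein of myeloid cells, at 31.4 and 2.00 CPM against 0.0622 to 0.748 CPM, and Slfn4, a myeloid Schlafen protein, at 132 and 7.03 CPM against 1.68 to 4.24 CPM. Chl1, a neural cell adhesion protein, was at 54.3 and 8.35 CPM against 3.37 to 3.67 CPM, and Kcna5, a potassium channel, at 9.75 and 2.80 CPM against 0.436 to 1.13 CPM. Diet library 1 was the higher in all 5. Klf14, a Krüppel-like transcription factor, had 15 reads over the diet libraries and 0 with the drug, at least 5.005-fold lower with 3 counts taken as the floor over the drug group. Among the highest, Dusp13, Serinc2, Jsrp1 and Asb16 peaked in drug library 2, the one with muscle RNA (Dusp13 0.686, 12.3 and 0.747 CPM in drug libraries 1, 2 and 3). Acta1, skeletal muscle actin, was at 3397 CPM in drug library 2 and at 0.719 to 24.1 CPM in the other 4. Nptx1, a neuronal pentraxin, was even across the drug libraries, at 15.1, 14.3 and 18.8 CPM against 1.92 and 0.759 CPM (3.59 ± 0.55, edgeR adjusted p = 0.0786).

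Whether the drug effect differs with Raptor was tested by the interaction, the log2 drug effect in Raptor-deleted fat minus that in floxed fat. 28 genes were called (0.104% of tested genes), 23 in the positive (0.0853%) and 5 in the negative direction (0.0185%). These values follow the treatment characteristic of the floxed libraries. With the treatments of the titles, 154 genes were called and 4 of the 28 were among them. C77080 (2.18 ± 0.30, edgeR adjusted p = 0.042) and Hist1h2ap (11.41 ± 0.64, adjusted p = 0.000659) were called under both readings, at 1.71 and 9.53 by the titles. Hist1h2ap carries here the uncertainty about its copies, whose sum gave 2.50 ± 0.42 (adjusted p = 0.0727). The following genes were chosen after their values were seen. Cpe, a carboxypeptidase that processes peptide hormones, was at 22.4 and 15.2 CPM on the diet and 56.6, 83.8 and 69.1 CPM with the drug in Raptor-deleted fat, and at 20.5, 26.0 and 20.5 CPM against 8.88, 8.21 and 12.9 CPM in floxed fat (interaction 3.05 ± 0.37). Nat8l, which makes N-acetylaspartate, was at 172 and 86.2 CPM against 51.2, 58.7 and 41.6 CPM in Raptor-deleted fat and at 83.9, 71.2 and 72.4 CPM against 221, 239 and 194 CPM in floxed fat (-2.87 ± 0.37, adjusted p = 0.0369). Of the 5 negative genes Kcnt1, a sodium-activated potassium channel, is the other with a characterised product (-3.67 ± 0.42), and the remaining 3 are Gm22419, Gm12840 and Olfr1033. Fasn had an interaction of -4.39 that was not called (adjusted p = 0.0981).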

How the data were processed

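Libraries were made with the Nextera XT kit from Trizol-extracted RNA of the fat pad per the labels' protocols, where strand is not mentioned. Transcripts were quantified by the authors with Salmon, and edgeR and the builds mm10 and GRCm38 are also named, per the submitters' processing notes. The annotation release, like the tool versions, is not given in the sources used here. Per the file headers, every deposited table lists transcripts with their estimated count and their TPM.

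Through GENCODE identifiers on GRCm38, 131892 of 132288 transcripts (99.7%) were assigned to 52282 genes, and their estimated counts were summed and rounded to whole numbers. CPM values are these counts scaled after TMM normalisation. The test was the quasi-likelihood test of edgeR 4.0.16 (R 4.3.3), with robust dispersion, 1 mean for each of the 4 groups, all 11 libraries in the fit and the default filter by group. Only the 3 drug and 2 diet libraries of Raptor-deleted tissue enter the contrast, and the floxed ones add to the estimate of spread. Benjamini-Hochberg adjustment ran over all 26960 tested genes, calls were made at 0.05, and errors are the model's standard errors. Where a group had 0 reads, 3 counts over that group served as the floor of a fold. Intervals and floors leave out all but counting error, because PCR copies are not independent molecules.

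The members and the 54 gene lists were chosen with earlier results of these data known, so lists are described by counts and medians beside all tested genes, with no test. Named genes are the called ones and a fixed set. To these were added, among genes not called, the 10 highest and 10 lowest log2 fold changes of protein-coding genes with an unadjusted p under 0.05, average log2 CPM from 1 upward, no overlap between groups and no clone or predicted name. Of each described list, up to 4 members with the smallest p were also named. Some genes that this rule picks are not reported here.

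Alternatives were RLE and upper-quartile scaling, DESeq2 1.42.0, voom of limma 3.58.1, other filters, the 5 libraries alone, the replicate number as a block, fits without ribosomal and signal recognition particle RNA or with protein-coding genes only, limma-trend on log2(TPM + 1), covariates for muscle and B cell markers, and each library left out. Summing the 12 H2A genes and reading the floxed treatments from the titles were added after seeing the data. Fits without diet library 1 or 2 rest on 1 diet library of Raptor-deleted fat, so lists are described in them by their medians alone. On simulated counts for 26317 genes the test recovered 4.48% of 2-fold, 32.8% of 4-fold and 89.4% of 16-fold changes in this comparison, with 2 false calls. Reads of near-identical genes are divided by Salmon's model, and overlapping genes on opposite strands cannot be told apart.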

Additional observations from a re-analysis of the deposited data

Results flagged for a closer look

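The drug effect differed between Raptor-deleted and floxed fat for 28 genes, by edgeR's quasi-likelihood test of the interaction at an adjusted p under 0.05, and 4 of them are described with their values here. The values follow the treatment characteristic of the floxed libraries, which their titles contradict, and by the titles the sign of C77080, Hist1h2ap and Nptx1 was kept and that of Itgax turned (-0.3872). For C77080 the difference was 2.18 ± 0.30 on the log2 scale (adjusted p = 0.042), and it was called in 13 of 24 alternatives, between 1.10 and 2.50. For Hist1h2ap it was 11.41 ± 0.64 (adjusted p = 0.000659), called in 23 of 24, with 0 reads in both diet libraries of Raptor-deleted fat. All 24 use the same division of reads among its copies. Hist1h2ao, identical over the coding bases, had 39 and 79 reads in those diet libraries. The sum of the 12 near-identical H2A genes gave 2.50 ± 0.42 and was not called (edgeR adjusted p = 0.0727). For Nptx1 it was 5.42 ± 0.77 (adjusted p = 0.0448), called in 12 of 24, and 1.76 by the titles (adjusted p = 0.3324). For Itgax, the CD11c integrin, it was 2.98 ± 0.43 (adjusted p = 0.0448), called in 12 of 24. Itgax was higher with the drug in all 3 drug libraries of Raptor-deleted fat, and fell by 1.68 in floxed fat by the treatment characteristic (adjusted p = 0.0246).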

How the results depend on the processing

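The 4 called genes became 14 with upper-quartile scaling, 354 with DESeq2, 0 with limma-voom (1153 at an unadjusted p under 0.05), 20 with no filter, 2 with a filter of 1 CPM in 3 libraries, 0 in the 5 libraries alone (1531 unadjusted), 11 with protein-coding genes, 254 with limma-trend on log2(TPM + 1), 251 with the B cell covariate and 2 with the H2A genes summed. RLE scaling, the muscle covariate and removal of ribosomal and signal recognition particle RNA gave 3, 3 and 4. Leaving out 1 library gave 1 to 145, with 145 without diet library 2 and 21 without floxed diet library 1. The higher share of genes at the unadjusted threshold was 48.9%, against 35.9% with upper-quartile scaling, 67.9% without diet library 1 and 1.0% on the TPM scale, where the median of all genes was -0.5972 and genes are read relative to it. The replicate numbers do not pair the libraries (correlations of same-numbered deviations -0.149 and -0.195), and with the replicate block 1 gene was called, as was 1 for the interaction.

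The 28 interaction genes became 44 with upper-quartile scaling, 516 with DESeq2, 61 with limma-voom, 47 with no filter, 44 with the 1 CPM filter, 44 without ribosomal and signal recognition particle RNA, 52 with protein-coding genes, 5 on the TPM scale, 1 with the muscle covariate, 234 with the B cell covariate, 154 by the titles and 1 to 348 without 1 library. It could not be fitted in the 5 libraries alone. By the titles the Itgax interaction turned to -0.3872.

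Signs turned in 27 of the fits of the 92 named genes. Klf14 was at 0.4226 on the TPM scale. Plin1 was at -0.03121 with upper-quartile scaling and -0.2846 on the TPM scale, and Srebf1 at -0.02929 and -0.2268 there, -0.001776 with protein-coding genes and -0.01427 with the muscle covariate. With the B cell covariate Ucp1 was at 0.5863, Slc2a4 at 0.1194 and Lep at 0.9547, and Lep was at 0.4039 with limma-voom, 0.4966 with the replicate block and 0.2122 on the TPM scale. Without 1 library the ranges were -1.583 to 0.2863 for Pparg, -0.1713 to 1.147 for Fabp4, -0.2489 to 1.584 for Adipoq, -0.549 to 0.9279 for Plin1, -1.339 to 2.131 for Ucp1, -0.3133 to 0.4683 for Srebf1, -1.071 to 0.7803 for Slc2a4, -1.012 to 1.969 for Lep and -0.5672 to 1.712 for Cd36. The cause of these shifts was not tested. On simulated counts, which held no uneven diet pair, the test recovered 4.48% of 2-fold and 32.8% of 4-fold changes. A gene that was not called may therefore still differ.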

Other observations

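Markers of Schwann cells, the glia of peripheral nerves, were lower with the drug in Raptor-deleted fat at an unadjusted p under 0.05 in 4 of 9, against 4.27% of all tested genes, with a median log2 fold change of -0.79. Cdh19, a glial cadherin, was at 21.4 and 11.9 CPM on the diet and at 3.87, 5.27 and 4.29 CPM with the drug (-1.89 ± 0.36, edgeR adjusted p = 0.156). The list's median was -0.92 without diet library 1 and -0.46 without diet library 2.

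Of 19 circadian genes 3 were lower and 1 higher at that threshold, against 4.27% and 4.09% of all tested genes. Their median was -0.28, which was 0.10 without diet library 1 and -0.55 without diet library 2. Of 15 fibroblast growth factor genes 2 were lower, against 4.27% of all tested genes. Their median was -0.27, which was 0.11 without diet library 1. Fgf2 was at 103 and 43.1 CPM against 24.9, 30.7 and 23.2 CPM, and Fgf7 at 15.1 and 5.23 CPM against 3.93, 3.16 and 3.05 CPM. Of 28 genes of the integrated stress and unfolded protein responses 4 were higher, against 4.09% of all tested genes. The list's median was 0.10, with 15 of the 28 positive and 13 negative. That median was 0.38 without diet library 1 and -0.01 without diet library 2. Among the 4 were Atf3 at 20.2 and 7.95 CPM against 48.2, 41.6 and 45.7 CPM (1.68 ± 0.52) and Gdf15, a stress hormone, at 2.46 and 0.759 CPM against 7.98, 6.70 and 7.41 CPM (2.20 ± 0.74).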
